A study of Mus musculus with 8 samples.

Results

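Hox genes encode homeodomain transcription factors and lie in 4 clusters, Hoxa on chromosome 6, Hoxb on chromosome 11, Hoxc on chromosome 15 and Hoxd on chromosome 2 of the mouse. All 39 genes of the 4 clusters were taken by name, leaving out antisense and opposite-strand transcripts, out of 49671 genes in the deposited counts table. Of the 39, 27 had a row in the authors' deposited table and a value above 0 in some library, and 12 were at 0 in all 8 libraries. The cells were reporter-positive GLI2+ cells sorted from whole lungs of adult mice, 4 control mice (Gli2creERT2-tdt with the R26RYFP reporter) and 4 mice that carry the SmoM2 allele as well (Gli2creERT2-tdt with R26RYFP/SmoM2). In both genotypes a tamoxifen-inducible Cre driven by Gli2 switches on yellow fluorescent protein, and in the second it also switches on SmoM2, a constitutively active mutant of Smoothened, which passes on the Hedgehog signal. For the SmoM2 mice the labels state intraperitoneal tamoxifen, a daily dose of 200 mg per kg on 5 days. For the controls no dose is stated in the sources used here. The design asks how active Hedgehog signalling changes the expression of GLI2+ lung stroma, and the labels number 8 different animals.

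Within a cluster, Hox genes are numbered by paralogue group from the end used first and most anteriorly in the embryo (group 1) to the end used last and most posteriorly (group 13), so that the set of Hox genes a mesenchymal cell keeps on is a record of its position along the body. The proteins bind DNA together with TALE homeodomain partners of the Pbx and Meis families, and Polycomb and trithorax (MLL) complexes hold the genes off or on after the embryonic signals are gone. In the lung, Hoxa5 is the best known member, needed in mesenchyme for airway and alveolar development, and its paralogues Hoxb5 and Hoxc5 act with it there, in part by way of Wnt2.

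The homeobox of Hoxa5, the part of the gene that encodes the DNA-binding homeodomain, is given because Hoxa5 leads all other members in these cells. In the GENCODE M21 annotation of GRCm38 (mm10) it lies in an exon at chr6:52202632-52202811 on the minus strand, and is 180 bases, or 60 codons, long.
Hoxa5: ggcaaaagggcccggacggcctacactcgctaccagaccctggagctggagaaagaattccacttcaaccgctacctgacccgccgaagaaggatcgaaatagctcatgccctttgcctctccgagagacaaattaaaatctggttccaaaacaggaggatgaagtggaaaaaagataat
Over all 569 pairs of members in different clusters, the longest run of identical transcript bases was 52, between Hoxa6 and Hoxb4, and between Hoxa5 and Hoxb5 it was 26. How far reads could be shared between members was not tested.

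Estimated counts, in units, summed to between 91616181 and 111615243 in each library. 1 sequenced fragment was taken to add 5 units, the commonest nonzero value, which the values do not settle, and depth was then about 18323236 to 22323049 fragments. A count of 0 allows up to 3 fragments, or 15 units, which is 0.127 to 0.171 CPM (counts scaled to the library total) depending on the library. This limit covers counting error only. By their sex-linked transcripts, each group held 2 male and 2 female libraries. Gli1, a target of Hedgehog signalling, had means of 99.3 ± 32.9 CPM (control) and 101 ± 21.5 CPM (SmoM2), SD over 4 libraries each (log2 fold change 0.03, 95% interval -0.54 to 0.60). For Ptch1, which is both a target and the receptor, the means were 173 ± 57.4 and 159 ± 50.8 CPM (-0.12, -0.74 to 0.51). Neither was higher beyond the spread between mice, so the SmoM2 libraries are named by their label only (SmoM2-labelled).

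The highest Hox levels in these cells were those of groups 2 to 7 in the A and B clusters. Levels of different genes were compared as CPM per kilobase of exon (CPM per kb). Summed that way over each library, groups 4 to 8 took 71.2% to 79.6% of the Hox total (median 76.6%), groups 1 to 3 took 20.4% to 28.8% (median 23.3%), and groups 9 to 13 took 0.00774% to 0.129%. By paralogue group, group 5 led with a summed level of 95.5 ± 14.5 CPM per kb (SD, n = 8), 54.6% of the total, ahead of group 4 at 21.1 ± 1.19, group 2 at 19.7 ± 1.94 and group 3 at 18.8 ± 1.78 CPM per kb. Groups 6, 7 and 8 had 11.7 ± 3.02, 6.06 ± 2.02 and 0.533 ± 0.180 CPM per kb.

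By cluster, the summed level was 207.0 to 300.2 CPM for Hoxa (median 261 CPM) and 137 to 186 CPM for Hoxb (median 146 CPM). Hoxc genes summed to 1.06 to 4.47 CPM and Hoxd genes to 0.237 to 2.01 CPM. The A and B clusters therefore held 62.2% and 37.1% of all Hox CPM, against 0.491% for C and 0.265% for D. Of the 39 genes, 16 were above the limit of 15 units in all 8 libraries, 7 of 11 Hoxa genes, 7 of 10 Hoxb genes, 2 of 9 Hoxc genes (Hoxc4 and Hoxc5) and 0 of 9 Hoxd genes. Another 7 were above it in some libraries, and 4 were above 0 but not above it in any (Hoxa10, Hoxa13, Hoxb1 and Hoxb9).

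**Figure D1:**
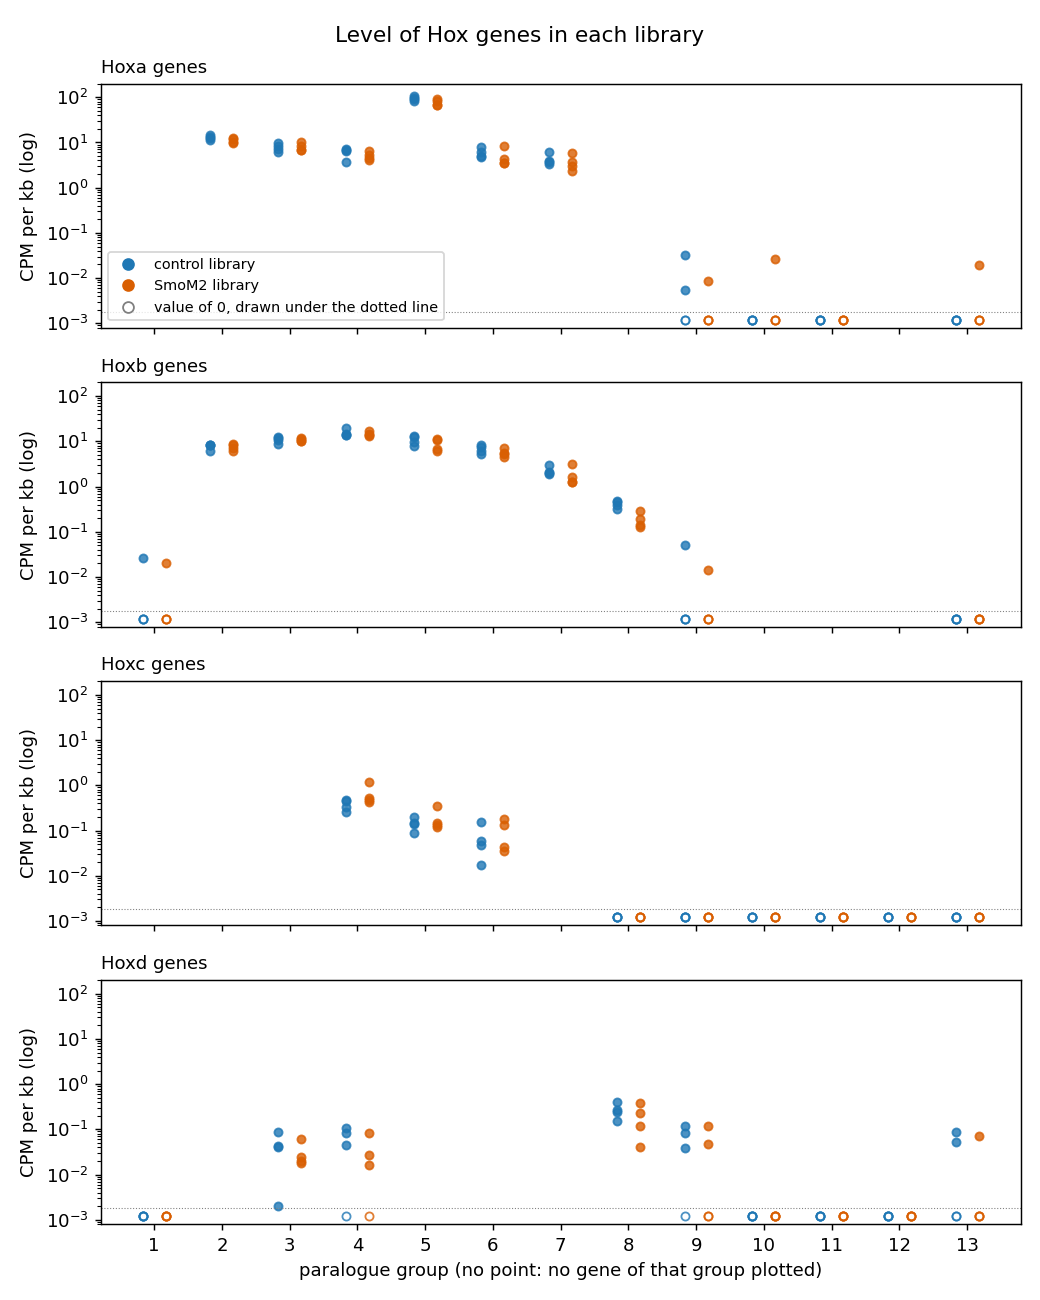
Level of the Hox genes plotted, in each library, in CPM per kb of exon on a log axis, by paralogue group, with 1 panel per cluster (blue: 4 control libraries, orange: 4 SmoM2-labelled libraries, open circles: values of 0). Hoxa5 stands above every other gene, Hoxa and Hoxb levels end after groups 7 and 8, and Hoxc and Hoxd genes stay under 2 CPM per kb.

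Hoxa5 (ENSMUSG00000038253, chromosome 6, 52201754 to 52204587, minus strand) had the highest level of all members, with a mean of 85.6 CPM per kb (67.4 to 104) that made up 48.9% of the Hox total. It was 5.71 times that of the next gene, Hoxb4, and higher than in 97.2% of 20073 tested genes with a known length. After it came Hoxb4 at 15.0 CPM per kb (13.4 to 19.2), Hoxa2 at 12.0 (9.69 to 14.8), Hoxb3 at 10.8 (8.67 to 12.2) and Hoxb5 at 9.79 (6.24 to 13.1). Hoxa3 (7.96), Hoxb2 (7.66), Hoxb6 (6.12), Hoxa4 (5.55) and Hoxa6 (5.45 CPM per kb) completed the first 10. From Hoxb4 down, each gene's range over the 8 libraries overlapped that of the next in order, and Hoxa3 was above Hoxb2 in 4 of 8 libraries. Only the step from Hoxa5 to Hoxb4 separated neighbours without overlap among these 10. The order below Hoxa5 depends on the length used. With the longest transcript in place of all exons, Hoxa3 came second at 18.5 CPM per kb, ahead of Hoxb4, Hoxb3 and Hoxa2, and Hoxa7 (5.70 CPM per kb) took the place of Hoxa6 (5.45) among the first 10.

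The edge of the active region was sharp in the A cluster. Hoxa7 (chromosome 6, 52214491 to 52221854) averaged 4.02 CPM per kb, and its neighbour Hoxa9, whose annotated end lies 1245 bases further on, averaged 0.00571 CPM per kb. Hoxa9 was at 0 in 5 libraries and at 3, 21 and 5 units in control 2, control 4 and SmoM2-labelled 4. Beyond it, Hoxa10 and Hoxa13 had 9 and 5 units in SmoM2-labelled 4 alone, and Hoxa11 was at 0 in all 8.

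The B cluster had a slope that ended after Hoxb8. Hoxb8 was above 15 units in all 8 libraries and Hoxb9 in none. From Hoxb4 onward the mean was lower with each gene, at 15.0, 9.79, 6.12, 2.04, 0.300 and 0.00815 CPM per kb for Hoxb4, Hoxb5, Hoxb6, Hoxb7, Hoxb8 and Hoxb9, and each of these steps went down in 8 of 8 libraries. Hoxb13, which lies apart from the others, was at 0 in all 8. At the other end Hoxb1, a hindbrain gene in the embryo, had 6 units in control 2, 5 in SmoM2-labelled 3 and 0 elsewhere.

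Hoxc and Hoxd genes were low, and of them Hoxc4 and Hoxc5 alone were above the limit in all 8 libraries. Hoxc4 led its cluster at 0.518 CPM per kb, followed by Hoxc5 at 0.165 and Hoxc6 at 0.0839 CPM per kb, and Hoxc8 to Hoxc13 were at 0 in all 8 libraries. Hoxd8, at 0.233 CPM per kb, led the D cluster. Hoxd1, Hoxd10, Hoxd11 and Hoxd12 were at 0 in all 8. Traces of the posterior genes Hoxd9 and Hoxd13, and of Hoxd4 in group 4, were highest in the same libraries. Hoxd13, known for its part in digits and the genital tubercle, had 22, 12 and 18 units in control 2, control 3 and SmoM2-labelled 1 and 0 in the other 5. Hoxd9 had its highest values in control 2, control 3 and SmoM2-labelled 1 too (18, 23 and 26 units), as had Hoxd4 (32, 22 and 25 units), and values of 15 units or less are within what a count of 0 allows. That covers the 12 units of Hoxd13 in control 3. Hoxd4 also had 16 units in control 4, where Hoxd9 and Hoxd13 were at 0. Of the 16 genes of groups 9 to 13, 3 were above 15 units in any library (Hoxa9, Hoxd9 and Hoxd13).

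RefSeq promoter windows (GRCm38.p6) were matched for 22 of the 39 genes, and the 250 bases before the start are given for Hoxa5 as the highest member, for Hoxa13 as one at 0 in 7 of 8 libraries, and for Hoxb8 as the member that differed most between the groups. They lie at chr6:52204588-52204837 (minus strand), chr6:52260881-52261130 (minus strand) and chr11:96281655-96281904 (plus strand), and capitals mark CG dinucleotides.
Hoxa5: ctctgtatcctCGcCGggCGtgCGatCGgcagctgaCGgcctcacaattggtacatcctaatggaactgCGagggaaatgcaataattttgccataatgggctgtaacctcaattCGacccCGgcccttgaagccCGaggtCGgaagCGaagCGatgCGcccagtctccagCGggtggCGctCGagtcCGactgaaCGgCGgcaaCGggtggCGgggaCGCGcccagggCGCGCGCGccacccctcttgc
Hoxa13: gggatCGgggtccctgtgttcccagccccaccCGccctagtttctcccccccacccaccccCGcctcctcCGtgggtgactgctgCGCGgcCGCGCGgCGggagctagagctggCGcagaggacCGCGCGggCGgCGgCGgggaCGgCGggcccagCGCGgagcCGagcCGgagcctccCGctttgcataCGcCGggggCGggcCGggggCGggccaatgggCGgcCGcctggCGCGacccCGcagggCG
Hoxb8: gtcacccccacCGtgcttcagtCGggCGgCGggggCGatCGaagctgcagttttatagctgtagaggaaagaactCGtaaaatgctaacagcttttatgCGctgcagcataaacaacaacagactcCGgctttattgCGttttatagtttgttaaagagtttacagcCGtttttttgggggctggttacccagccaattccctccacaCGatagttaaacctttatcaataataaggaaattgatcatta
Hoxa5 held 28 CG dinucleotides, Hoxa13 35 and Hoxb8 12, against a median of 6 over 32851 windows of the same length. CG-rich windows thus preceded both the highest member and one at 0 in most libraries. The letters TGATNNAT, a form of the site of Hox proteins bound with Pbx, were found on either strand in 4 of 24 Hox windows, that of Hoxb8 among them, and in 7.68% of all windows. Such a match describes the letters only.

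Between the groups, no Hox gene changed by the main test. edgeR's quasi-likelihood test on all genes called 0 of 20162, 0% (smallest adjusted p 0.138), so it also called 0 of the 21 Hox genes that passed the filter on low counts. Their adjusted p was 0.9999 in each case. DESeq2 called 0 of the 23 Hox genes to which it gave an adjusted p (0.285% of all genes called), limma-voom called 0, and 0 Hox genes passed in the authors' deposited table (0.0498% of all genes called). Of the 21 tested, 16 had a lower and 5 a higher mean estimate in SmoM2-labelled libraries, with a median log2 fold change of -0.26, while over all genes 51.0% were lower and the median was -0.00. In clusters A and B 12 of 14 were lower, and genes of a cluster are neighbours and not independent of each other. Hoxa genes summed to 278 ± 20.6 CPM (control) and 239 ± 25.1 CPM (SmoM2-labelled), and the summed Hoxb level was 160.2 ± 23.0 and 148 ± 11.7 CPM (SD, n = 4 each). Hoxa5 alone made up 177 CPM (control) and 144 CPM (SmoM2-labelled) of the Hoxa sums.

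At an unadjusted p under 0.05 edgeR counted 2 Hox genes, Hoxb8 and Hoxa5, where 3.75% of all genes did so. That count was 7 without SmoM2-labelled 3 (among them Hoxb8, Hoxa5, Hoxb7, Hoxa6, Hoxa2 and Hoxc4), when 6.26% of all genes passed, and 1 without control 1, control 2, SmoM2-labelled 1 or SmoM2-labelled 4. In bulk RNA, fewer cells of a type and less RNA per cell cannot be told apart.

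**Figure D2:**
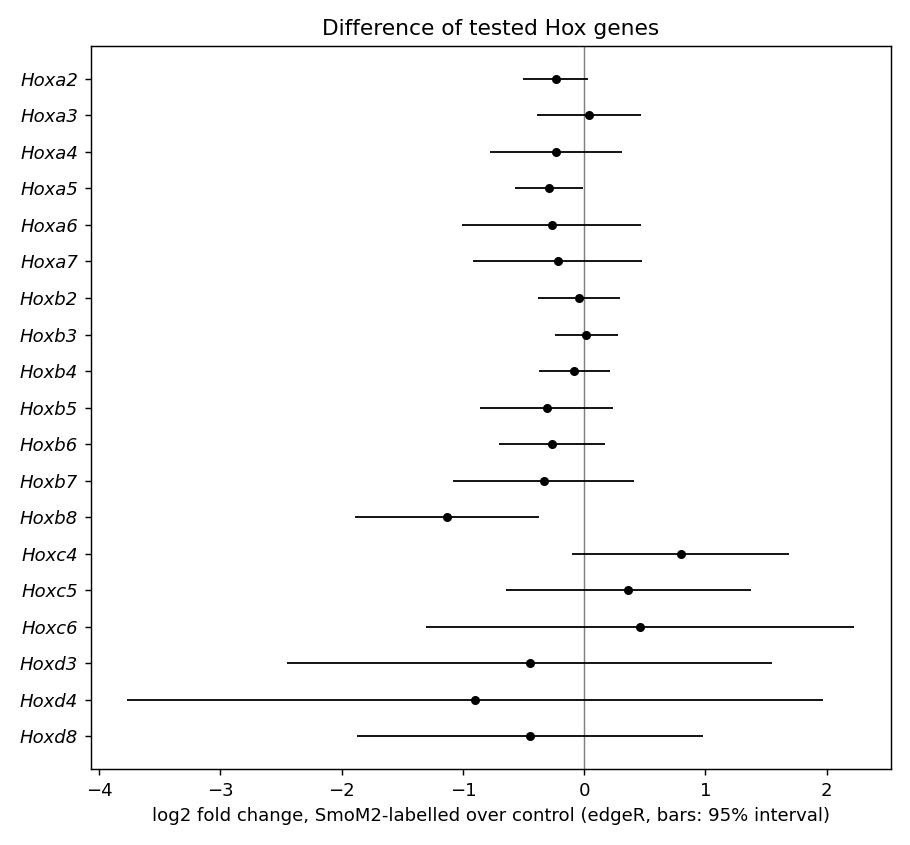
Log2 fold change of SmoM2-labelled over control libraries for tested Hox genes above the detection limit in either group, with 95% intervals from edgeR (n = 4 each). The intervals of Hoxa5 and Hoxb8 lie below 0 and the others plotted include it, before any adjustment for the number of genes tested.

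Hoxb8 (ENSMUSG00000056648, chromosome 11, 96281905 to 96285315), the last gene of the B cluster above the limit in every library, had the largest unadjusted difference. It was at 1.004, 1.22, 0.839 and 1.28 CPM in controls 1 to 4 and at 0.331, 0.377, 0.760 and 0.511 CPM in SmoM2-labelled libraries 1 to 4. All 4 controls were above all 4 SmoM2-labelled libraries, the only tested Hox gene whose groups did not overlap, which held for 2.44% of all tested genes (1.42% counting lower ones alone). The means were 1.09 ± 0.203 and 0.495 ± 0.193 CPM (log2 fold change -1.13, SE 0.33, 95% interval -1.89 to -0.38, unadjusted p 0.00826, edgeR adjusted p 0.9999). These levels rest on few molecules, about 15.4 to 30.4 fragments in each control and 6.60 to 16.4 in each SmoM2-labelled library. Hoxb8 was not tested where at least 1 CPM in 4 libraries was required, and across the other 15 alternatives its log2 fold change lay between -1.42 and -0.98 with unadjusted edgeR, limma or DESeq2 p of 0.00140 to 0.0240. The authors' deposited table gives a log2 fold change of -1.13 with p 0.0150 and an adjusted p of 1. Mesothelial markers also separated the groups, with a summed level of the 6 markers of 169 to 406 CPM in the controls against 81.8 to 160.1 CPM in the others, all 6 lower, and none of them at 0. Within each group of 4 libraries the order of these sums was not that of Hoxb8. Control 3 had the highest sum (406 CPM) and the lowest Hoxb8 of the controls, and control 4 the lowest sum (169 CPM) and the highest Hoxb8. SmoM2-labelled 1 had the highest sum of its group (160.1 CPM) and the lowest Hoxb8. The part of mesothelial cells in the Hoxb8 difference was not tested, and an order within 4 libraries cannot decide it.

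Hoxa5 was at 196, 185, 159 and 168 CPM in controls 1 to 4 and at 127, 156, 169 and 127 CPM in SmoM2-labelled libraries 1 to 4. The groups overlapped, since SmoM2-labelled 3 was above controls 3 and 4, while SmoM2-labelled 1 and 4 were below every control. Those 2 libraries also had the highest sums of the 6 adventitial fibroblast markers (8767 and 8493 CPM) and the lowest ratios of alveolar to adventitial marker sums (0.805 and 0.815). At the other end the libraries differed. Control 4 had the lowest adventitial sum (3380 CPM) and the highest ratio (3.14), and its Hoxa5 was below that of controls 1 and 2. SmoM2-labelled 3 came next to it (4213 CPM and a ratio of 2.30) and had the highest Hoxa5 of its group. The means of 177 ± 16.6 and 144 ± 21.3 CPM gave a log2 fold change of -0.29 (SE 0.12, 95% interval -0.57 to -0.01, unadjusted p 0.0427, edgeR adjusted p 0.9999). Unadjusted p reached 0.112 without SmoM2-labelled 4. All 6 adventitial markers had a higher mean in SmoM2-labelled libraries, and all 6 smooth muscle and all 6 endothelial markers a lower one, and their part in the Hoxa5 difference was not tested. A decrease in Hoxa5 beyond 0.57 on the log2 scale was outside the interval.

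Its paralogue Hoxb5 was at 27.3, 35.0, 21.8 and 36.6 CPM in the controls and 29.9, 18.9, 31.3 and 17.4 CPM in the SmoM2-labelled libraries. Libraries of either group differed by more than the means did, at 30.2 ± 6.88 and 24.4 ± 7.24 CPM (log2 fold change -0.31, SE 0.24).

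The anterior genes varied little. Hoxb3 was at 44.6, 49.3, 36.9 and 51.8 CPM in the controls and 43.9, 43.5, 50.0 and 47.5 CPM in the SmoM2-labelled group (log2 fold change 0.02, 95% interval -0.24 to 0.28), and its coefficient of variation over the 8 libraries, 10.4%, was the lowest of the members. Hoxb2 was at 21.2, 29.3, 29.6 and 28.3 CPM and at 24.3, 30.0, 21.5 and 29.5 CPM (log2 fold change -0.04, -0.38 to 0.30). Hoxa2, a gene known for patterning the second branchial arch, was at 22.9, 26.2, 22.7 and 20.6 CPM and at 17.2, 18.1, 22.3 and 20.9 CPM (log2 fold change -0.24, SE 0.12, unadjusted p 0.0767). For Hoxa2 the 3 highest values were controls, but the groups overlapped. Hoxa3, needed for the thymus and parathyroid, ranged from 36.1 CPM in control 4 to 62.5 CPM in SmoM2-labelled 4, with means of 47.2 ± 10.11 and 48.6 ± 10.03 CPM.

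Hoxb4 was at 35.9, 37.9, 34.9 and 49.3 CPM in the controls and 37.0, 34.4, 43.0 and 35.1 CPM in the SmoM2-labelled group, highest in control 4 and SmoM2-labelled 3 (log2 fold change -0.08, -0.38 to 0.22). These 2 libraries stood apart for other members as well. Hoxa7 was at 11.4, 9.40, 10.8 and 18.1 CPM in controls 1 to 4 and at 8.54, 10.9, 16.5 and 6.83 CPM in SmoM2-labelled libraries 1 to 4. Control 4 and SmoM2-labelled 3 were thus the highest of their groups, and the same held for Hoxa6 and Hoxb7.

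Hoxa6 was at 4.09, 5.35, 4.31 and 7.06 CPM and at 3.14, 3.84, 7.28 and 3.06 CPM. Hoxb7 was at 2.99, 3.29, 3.06 and 4.67 CPM and at 1.96, 2.48, 4.75 and 1.96 CPM. For both genes control 4 and SmoM2-labelled 3 were the 2 highest of all 8 libraries. Hoxb6 was at 11.7, 16.05, 10.1 and 14.5 CPM and at 10.7, 10.5, 13.8 and 8.69 CPM, with control 2 highest.

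Hoxa4 went the other way, at 10.1, 10.8, 11.4 and 5.86 CPM in the controls and 7.30, 8.37, 6.43 and 10.4 CPM in the SmoM2-labelled libraries, lowest in control 4 and SmoM2-labelled 3. The ratio of Hoxa7 to Hoxa4 within a library, which does not depend on scaling and was chosen after these values were seen, was 3.09 in control 4 and 2.57 in SmoM2-labelled 3 and lay between 0.654 and 1.30 in the other 6. Both libraries are from females, and the other female libraries, control 2 and SmoM2-labelled 4, were at 0.867 and 0.654. None of these 4 genes differed between the groups beyond this spread, with log2 fold changes of -0.22 for Hoxa7 (SE 0.30), -0.27 for Hoxa6 (SE 0.32), -0.33 for Hoxb7 (SE 0.33) and -0.23 for Hoxa4 (SE 0.24).

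Fibroblast markers also set control 4 and SmoM2-labelled 3 apart. Among the other 6 libraries the marker ratio and the Hoxa7 to Hoxa4 ratio were not in the same order. There Hoxa7 to Hoxa4 was highest in SmoM2-labelled 2 (1.30), and alveolar to adventitial markers in control 1 (1.25). The summed level of 6 alveolar fibroblast markers (Inmt, Npnt, Pdgfra, Tcf21, Ces1d and Limch1) was 10611 CPM for control 4 and 9704 CPM for SmoM2-labelled 3, against 6925 to 7801 CPM in the other 6. The 6 adventitial markers (Pi16, Dcn, Col14a1, Ly6a, Dpp4 and Clec3b) were at 3380 and 4213 CPM in those libraries, against 6225 to 8767 CPM in the others. Epithelial markers were also highest there, at 1257 and 761 CPM against 186 to 355 CPM, and pericyte markers lowest, at 252 and 342 CPM against 405 to 737 CPM. None of these 24 genes was at 0. The part of these cell types in the Hox levels was not tested. With control 4 and SmoM2-labelled 3 both left out, an alternative added after the values were seen, 5 Hox genes had an unadjusted p under 0.05 (among them Hoxb8, Hoxa5, Hoxa2 and Hoxb7, where 6.11% of all genes did so), 17 of 22 tested were lower, the median log2 fold change was -0.35 and 0 were called.

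**Figure D3:**
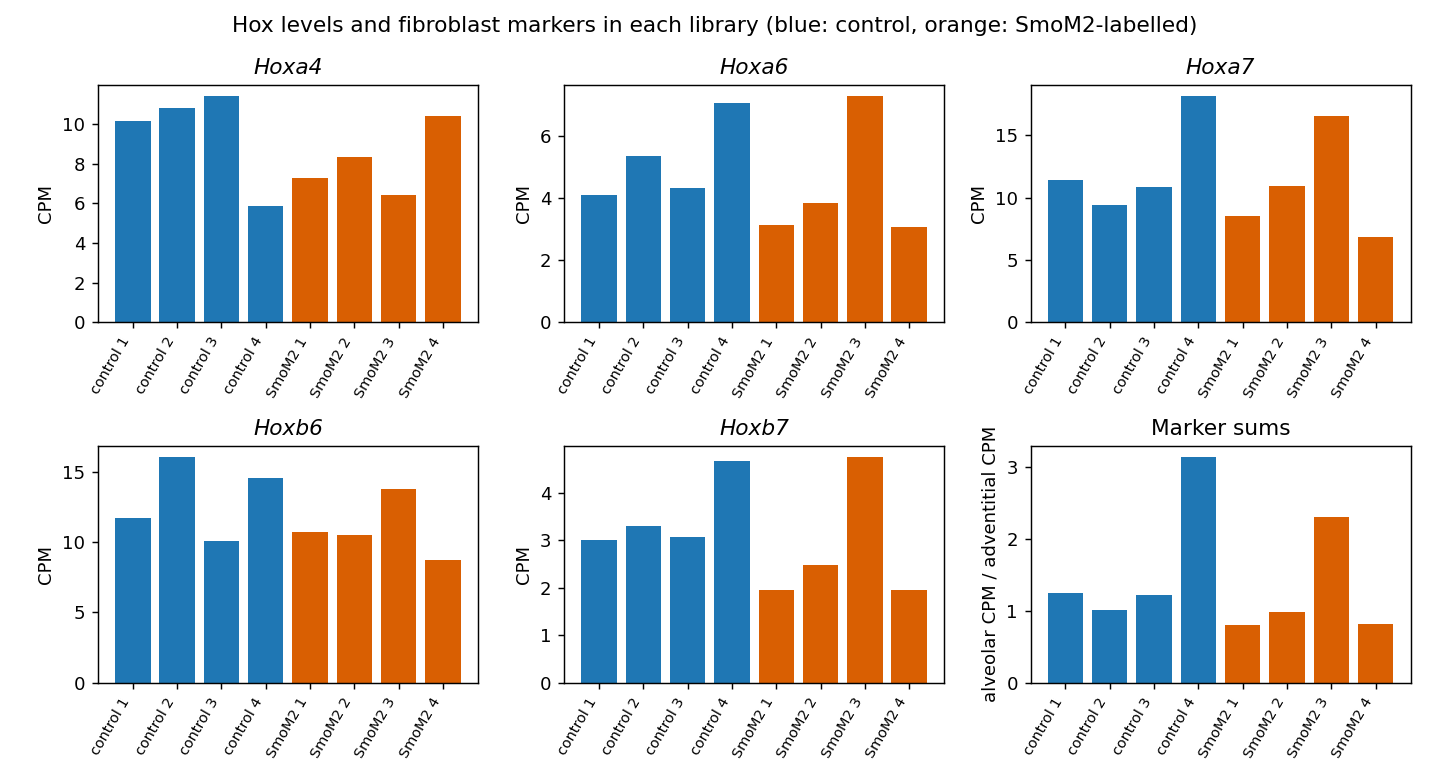
CPM of Hoxa4, Hoxa6, Hoxa7, Hoxb6 and Hoxb7 in each library, and the ratio of summed alveolar to adventitial fibroblast markers (blue: control, orange: SmoM2-labelled). Control 4 and SmoM2-labelled 3 have the highest Hoxa6, Hoxa7 and Hoxb7, the lowest Hoxa4 and marker ratios of 3.14 and 2.30, where the other 6 lie between 0.805 and 1.25.

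The Hoxc genes had higher mean estimates in SmoM2-labelled libraries, and 1 library carried most of it. Hoxc4 (ENSMUSG00000075394, chromosome 15, 103018934 to 103036852) was at 1.15, 1.22, 0.861 and 0.659 CPM in the controls and at 3.08, 1.36, 1.10 and 1.20 CPM in the SmoM2-labelled libraries. SmoM2-labelled 1 stood far above the other 7, and without it the log2 fold change was 0.33 (unadjusted p 0.306) in place of 0.80 (SE 0.39, unadjusted p 0.0749). Hoxc5 was at 0.455, 0.618, 0.436 and 0.279 CPM and at 1.07, 0.365, 0.417 and 0.445 CPM, again highest in SmoM2-labelled 1, and its log2 fold change of 0.36 (SE 0.44) became -0.13 without that library. Hoxc6 did not follow them, with 33 units in SmoM2-labelled 1, 46 in SmoM2-labelled 3 and 35 in control 3. SmoM2-labelled 1 also had the highest sum of the 6 cartilage markers (1626 CPM, against 112.5 to 1223 CPM in the others) and of the adventitial markers (8767 CPM), and their part was not tested.

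Among the Hoxd genes, Hoxd8 was at 0.666, 0.738, 1.13 and 0.414 CPM in the controls and at 1.08, 0.639, 0.334 and 0.114 CPM in the SmoM2-labelled libraries, so the groups overlapped widely (log2 fold change -0.44, SE 0.63). Hoxd3 (0.00845 to 0.359 CPM) and Hoxd4 (0 to 0.319 CPM) were tested, with intervals from -2.45 to 1.55 and from -3.77 to 1.97, so a large change was not detectable at this depth. Hoxd9 averaged under 15 units in both groups and is given no fold. The other 6 genes above 0 (Hoxa9, Hoxa10, Hoxa13, Hoxb1, Hoxb9 and Hoxd13) did not pass the filter on low counts.

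**Figure D4:**
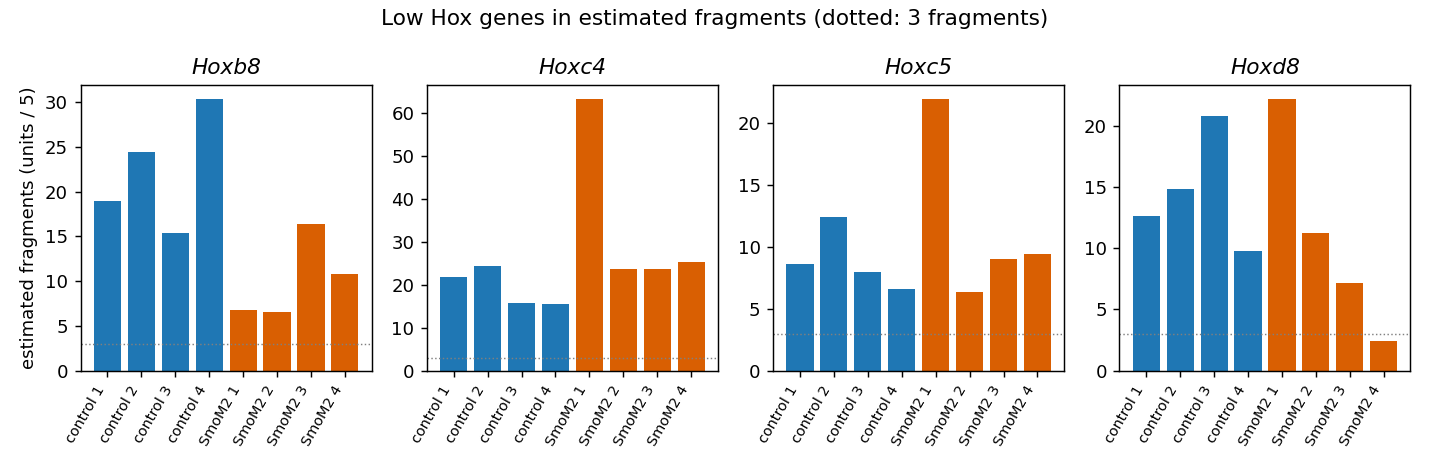
Estimated fragments (units divided by 5) of Hoxb8, Hoxc4, Hoxc5 and Hoxd8 in each library (blue: control, orange: SmoM2-labelled, dotted line: 3 fragments). Hoxb8 is higher in every control than in any SmoM2-labelled library once depth is taken into account, and Hoxc4 and Hoxc5 are highest in SmoM2-labelled 1.

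Several members share exons with other transcripts, and the labels do not say that strand was kept. The antisense gene Hoxb3os (6.01 to 12.8 CPM) covers 52.9% of the exon bases of Hoxb3 and 27.3% of those of Hoxb2, and Hoxaas3 (1.20 to 2.71 CPM) covers 20.4% of those of Hoxa7. On the same strand, Hoxd3 and Hoxd4 share 388 exon bases, and the joint transcript Gm28230 holds 53.1% and 39.1% of their exon bases. For these genes the split of reads is uncertain. Hoxa5 shared no exon base with another annotated gene among those in the deposited counts, and nor did Hoxa6, Hoxb4, Hoxb6, Hoxb7 or Hoxb8.

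None of the partners of Hox proteins was called. Of 11 TALE genes all were tested, 5 higher and 6 lower. Pknox2 averaged 74.8 ± 7.75 and 65.9 ± 7.22 CPM (control first, as for the genes that follow). Meis1, a cofactor of many Hox proteins, averaged 71.8 ± 11.1 and 55.6 ± 6.29 CPM (log2 fold change -0.37, unadjusted p 0.0191, edgeR adjusted p 0.9999). Tgif1, a TALE repressor, averaged 33.5 ± 5.62 and 44.9 ± 6.08 CPM (log2 fold change 0.42, unadjusted p 0.0182, edgeR adjusted p 0.9999).

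None of the chromatin regulators that maintain Hox states was called or had an unadjusted p under 0.05. In the PRC2 list 3 of 6 were higher, in the PRC1 list 1 of 10 and in the MLL list 4 of 7. Ezh1, a PRC2 methyltransferase, averaged 81.1 ± 18.4 and 85.2 ± 10.8 CPM, and its core partner Suz12 38.9 ± 3.09 and 27.6 ± 11.7 CPM. Phc2, a PRC1 subunit, averaged 98.6 ± 6.86 and 91.7 ± 9.40 CPM. Kmt2a, the MLL methyltransferase, averaged 180.2 ± 16.02 and 192 ± 8.34 CPM, and the demethylase Kdm6b 310.0 ± 123 and 297 ± 48.2 CPM. Of 6 other upstream factors, Cdx1, Cdx2 and Cdx4, the caudal activators of posterior Hox genes, were at 0 in all 8 libraries. Egr2, an activator of hindbrain Hox genes and an early response gene, averaged 115 ± 56.9 and 66.8 ± 36.2 CPM, and the boundary factor Ctcf 69.1 ± 2.90 and 66.9 ± 2.88 CPM.

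Among 12 genes next to the clusters, Cbx5 beside Hoxc averaged 164 ± 9.28 and 167 ± 14.2 CPM and Skap2 beside Hoxa 64.1 ± 3.35 and 53.2 ± 10.9 CPM, while Evx1 and Evx2, named after their values were seen, which are homeobox genes at the posterior ends of Hoxa and Hoxd, did not exceed 9 units in any library. Mtx2 beside Hoxd averaged 21.4 ± 0.871 and 18.2 ± 1.43 CPM (log2 fold change -0.23, unadjusted p 0.0306, edgeR adjusted p 0.9999). Of 7 flanking genes tested, 2 were higher, 5 lower and 0 called.

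Of the 5 lung genes linked to group 5 Hox genes, 2 were higher, 3 lower and 0 called. Wnt2, a distal lung Wnt ligand that depends on group 5 Hox genes in the embryo, was at 22.4, 25.9, 27.4 and 25.2 CPM in the controls and at 12.8, 14.3, 15.3 and 11.6 CPM in the SmoM2-labelled libraries, without overlap (2.44% of all tested genes). Its log2 fold change was -0.90 (SE 0.12), with an unadjusted p of 3.43e-05 and an edgeR adjusted p of 0.138. No gene tested had a smaller adjusted p. The adjustment gives genes of different unadjusted p the same value, though, and Wnt2 did not rank first by unadjusted p. Axin2, a Wnt target, averaged 69.3 ± 12.2 and 57.8 ± 15.6 CPM, and the growth factor Bmp4 105 ± 12.0 and 72.1 ± 30.4 CPM.

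Of 21 transcription factors that mark lung or other regions, 19 were tested, 6 higher, 13 lower and 0 called, and 0 had an unadjusted p under 0.05. The 2 with the highest mean CPM were T-box genes of lung mesenchyme, Tbx2 at 418 ± 74.2 and 314 ± 79.6 CPM and Tbx4 at 260.5 ± 45.5 and 223 ± 68.4 CPM.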

How the data were processed

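Poly(A) RNA of sorted cells from 4 control and 4 SmoM2 mice was sequenced. Tools listed in the submitters' processing notes are HISAT, StringTie, DESeq and FastQC, with mm10 as build and no versions. The authors deposited estimated counts per gene, which are whole numbers. The authors' deposited comparison table, per the file headers, holds mean signal (normalised counts), fold ratio, log2 fold change and p-value columns. Its direction is read as SmoM2 over control, the sign of 25 of 25 members with a log2 fold change other than 0 there being that of DESeq2 on the deposited counts. Symbols came from that table and GENCODE M21 (99.3% of IDs matched). Since titles give each of the 8 mice its own number, a p-value here reflects variation between animals. Column numbers name libraries only.

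All genes were fitted with edgeR 4.0.16 in R 4.3.3 (TMM scaling, default low-count filter, quasi-likelihood test, Benjamini-Hochberg adjustment, threshold 0.05), after tests on simulated data. Alternatives were DESeq2 1.42.0, limma 3.58.1, other filters and scaling, sex as a covariate, values divided by 5, transcript length, and leaving out libraries. The Hox members and the other gene lists were chosen with earlier results of these data known. Per-library values are given for the 10 members with the highest CPM per kb, for members with an unadjusted p under 0.05 or groups that do not overlap, and for the highest of each cluster and paralogue group. Some further members were added after their values were seen. From each other list, genes called are named or, with none called, the 2 highest and any with an unadjusted p under 0.05. Some members, list genes and sequences are not reported here.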

Additional observations from a re-analysis of the deposited data

Results flagged for a closer look

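In 42 groups of 4 libraries (the 21 tested members in each genotype), 4 held a library whose distance from its nearest neighbour exceeded Dixon's 95% critical share of the group's range, which chance passes in about 1 of 20 groups. Hoxb2 was at 21.2 CPM in control 1, below the other controls (0.839 of the range). SmoM2-labelled 1 gave the other 3, all above the rest of its group, with Hoxc4 at 3.08 CPM (0.871), Hoxc5 at 1.07 CPM (0.887) and Hoxd3 at 0.263 CPM (0.856). Hoxd3 there rests on 27 units. In a fit with sex, 0 members had an unadjusted p under 0.05 in edgeR's test of whether the group difference differed between sexes (smallest 0.104).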

How the results depend on the processing

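No Hox gene was called in any of the 16 alternatives, 1 of them chosen after seeing the data (control 4 and SmoM2-labelled 3 both left out). Over all genes DESeq2 called 69 where edgeR called 0, and leaving out 1 library gave 0 to 1, with 1 called without SmoM2-labelled 4. The count of members with an unadjusted p under 0.05 was 1 to 7 without 1 library, 3 in DESeq2, and 5 with both left out. With sex as a covariate it was 1, and with at least 1 CPM required in 4 libraries it was 1 of 14 tested. With the longest transcript as length, groups 1 to 3 took 28.9% and groups 4 to 8 took 71.1% of the Hox total. Leaving out 1 library turned the direction for members with small or noisy log2 fold changes: Hoxa3 (-0.10 to 0.17), Hoxa7 (-0.51 to 0.020), Hoxb2 (-0.14 to 0.042), Hoxb3 (-0.074 to 0.085), Hoxb4 (-0.15 to 0.045), Hoxc5 (-0.13 to 0.56), Hoxc6 (-0.00012 to 1.21) and Hoxd3 (-1.04 to 0.12). Hoxd3 was at 0.22 in limma-voom, and with both libraries left out Hoxb2 was at 0.063 and Hoxc6 at -0.14. The cause was not tested. No paired analysis was possible because the columns carry no number that pairs a control with a SmoM2 mouse. Members near 15 units are limited by depth.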
